A study of Homo sapiens with 8 samples.

Results

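The DNA replication machinery is described here as 43 named genes, looked up by symbol in the deposited table. They cover the MCM2-7 helicase, its loading and activation factors, the 3 replicative DNA polymerases, the clamp and its loader, Okazaki fragment processing, RPA and the RNase H enzymes. Of the 43 genes, 42 were rows of the table of 13453 genes, and PRIM2, a primase subunit, was not analysed here. RNA-seq of Jurkat, an established human T-cell acute lymphoblastic leukemia (T-ALL) line, gave 8 libraries in 4 conditions of 2 libraries each, and all 4 conditions carry the changes of that cell line. The shRNA set held control shRNA cells (sh-Ctrl) and CBAP knockdown cells (sh-CBAP), both made with lentiviral shRNA. The text used here does not name which CBAP shRNA the sequenced cells carried. The CRISPR set was made from CBAP knockout cells, and both of its conditions carry the knockout. These cells expressed either a CBAP-GFP fusion (labelled CBAP-reconstituted) or GFP (CBAP-KO+GFP), and the study describes such cells as stable clones. The question behind both comparisons was which transcripts differ when CBAP, a protein that the study links to proliferation of these cells, is reduced or absent.

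DNA is copied once per cell cycle in S phase. ORC, CDC6 and CDT1 load MCM2-7 rings on origins in G1. CDC45 and GINS join each ring to make the active helicase, and MCM10 aids that step. DNA polymerase alpha with primase starts each strand, polymerase epsilon extends the leading strand and polymerase delta the lagging strand. RFC loads the PCNA ring that holds polymerases on DNA, RPA coats single-stranded DNA, and FEN1, DNA2 and LIG1 trim and join Okazaki fragments. RNase H enzymes remove RNA from DNA. Many of these genes are E2F targets that rise at the entry to S phase.

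FPKM (fragments per kilobase of exon, scaled to the mapped fragments of the library) is scaled to length, so levels can be set side by side between genes. The table holds no read counts, so the depth behind each value is unknown and precision rests on 2 libraries per condition. The labels do not say whether the libraries of a condition came from separate cultures, so the p-values measure only the spread between these libraries, which may be technical. The summed FPKM of a library ran from 362082 to 434742. Among the 11427 genes tested, sh-CBAP replicate 1 had the lowest median FPKM, 11.1, against 12.1 to 13.9 in the other libraries. TMEM102, which encodes CBAP, was at 4.07 and 4.74 FPKM in sh-Ctrl and at 2.69 and 2.89 in sh-CBAP. It was listed at 0 in all 4 CRISPR-set libraries, those labelled CBAP-reconstituted included, so the target did not check the labels of that set. Of the 11 T-ALL markers in the table, CD3D, CD3E, CD3G, CD247, LCK, ZAP70 and TAL1 were at 55.8 FPKM or more in all 8 libraries, and CD2, CD5, CD7 and CD28 were not. The libraries labelled CBAP-reconstituted stood apart, with the T-cell surface gene CD5 at 0.18 and 0.231 FPKM against 19.7 to 27.4 in the other 6, and CD28 at 2.93 and 2.59 against 24.1 to 37.5. CD2 was at 10.97 and 10.28 FPKM there against 21.2 to 83.7 elsewhere, and CD7 at 39.0 and 38.1 against 124 to 204. The summed level of the 11 T-ALL markers in the table was 1557 to 1567 FPKM in these libraries, 1730 to 1760 in sh-Ctrl, 1769 to 1926 in sh-CBAP and 2032 to 2471 in CBAP-KO+GFP. Of 5 B-cell markers 1 was in the table, CD79A, at 14.5 to 22.5 FPKM in sh-Ctrl and 0.732 and 1.09 in the libraries labelled CBAP-reconstituted. The part of these differences in the results below was not tested, and a shift in cell state cannot be told apart from a change in RNA per cell in bulk samples. In the study GFP and CBAP-GFP were carried by different stable clones. A change between the CRISPR-set conditions therefore cannot be told apart from a difference between clones.

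Promoter sequence is shown first for some of the members that moved in a comparison and whose start region holds an exact E2F octamer. In the RefSeq promoter table (GRCh38.p14), 35 of the 42 members had an entry, 45 entries in all, and the 250 bases before each start were searched on both strands for TTTCCCGC, TTTGGCGC, TTTCGCGC and TTTGCCGC. A match was found in 12 of the 45 entries (26.7%), against 979 of all 35093 entries (2.79%). CCAAT, the NF-Y box, was in 27 of the 45 entries (60.0%) against 32.0% of all. The 35093 entries cover 27305 symbols, whether or not expressed in these cells. The share among expressed genes was not computed, so neither gap is shown to be particular to replication genes. Each window below has 30 bases, reads 5′ to 3′ on the strand of the gene, has the octamer or overlapping octamers in capitals, and is placed on GRCh37 by its single exact match there.
LIG1, chr19:48673697-48673726, minus strand: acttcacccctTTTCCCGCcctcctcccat
MCM3, chr6:52149696-52149725, minus strand: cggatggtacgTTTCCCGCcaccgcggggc
MCM7, chr7:99699021-99699050, minus strand: ccggtcacgtggggggcgacgTTTCGCGCc
MCM6, chr2:136634145-136634174, minus strand: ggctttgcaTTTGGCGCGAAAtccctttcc
MCM6, chr2:136634083-136634112, minus strand: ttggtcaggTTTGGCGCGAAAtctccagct
GINS2, chr16:85722573-85722602, minus strand: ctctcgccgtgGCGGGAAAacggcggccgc
POLE, chr12:133263929-133263958, minus strand: ctgggtgggagcGCGCCAAAtttctcccct
The LIG1, MCM7 and POLE windows overlap annotated exons of these genes in GENCODE 44 lifted to GRCh37, and the other 4 overlap no annotated exon. MCM6 held 2 such sites, each of 12 bases made of 2 overlapping octamers, and MCM7 held 2 sites, of which the one nearer to the start is printed. The remaining members with a match were POLA2, POLE4 and RFC3, which were called in the CRISPR set and are not printed, and CDT1, PCNA and POLA1, which passed no test as deposited. Of the 12 members with a match, 9 passed a test within a set or between the sets, as did 21 of all 35 members with an entry. Members with a match were called in both directions, LIG1 (TTTCCCGC) lower in both sets and POLE (TTTGGCGC, on the other strand) higher in the CRISPR set. A match is a run of letters and not a shown binding site.

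Of the 42 members, 40 had a value above 0 in all 8 libraries, and PRIM1 and RNASEH2C were listed at 0 in some. All 42 members passed the filter of a mean FPKM of at least 1, and their mean levels ran from 6.32 FPKM for POLD4, the small accessory subunit of polymerase delta, to 302 for PCNA, with a median of 47.7 against 13.0 for all tested genes. MCM7 was the highest MCM2-7 gene in each condition, with means of 180 to 217 FPKM. POLA1, the catalytic subunit of polymerase alpha, had means of 11.8 to 13.8 FPKM. Within polymerase delta, the means of POLD2, which bridges its subunits, were 124 to 158 FPKM, and those of POLD4 were 4.32 to 8.04.

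**Figure D1:**
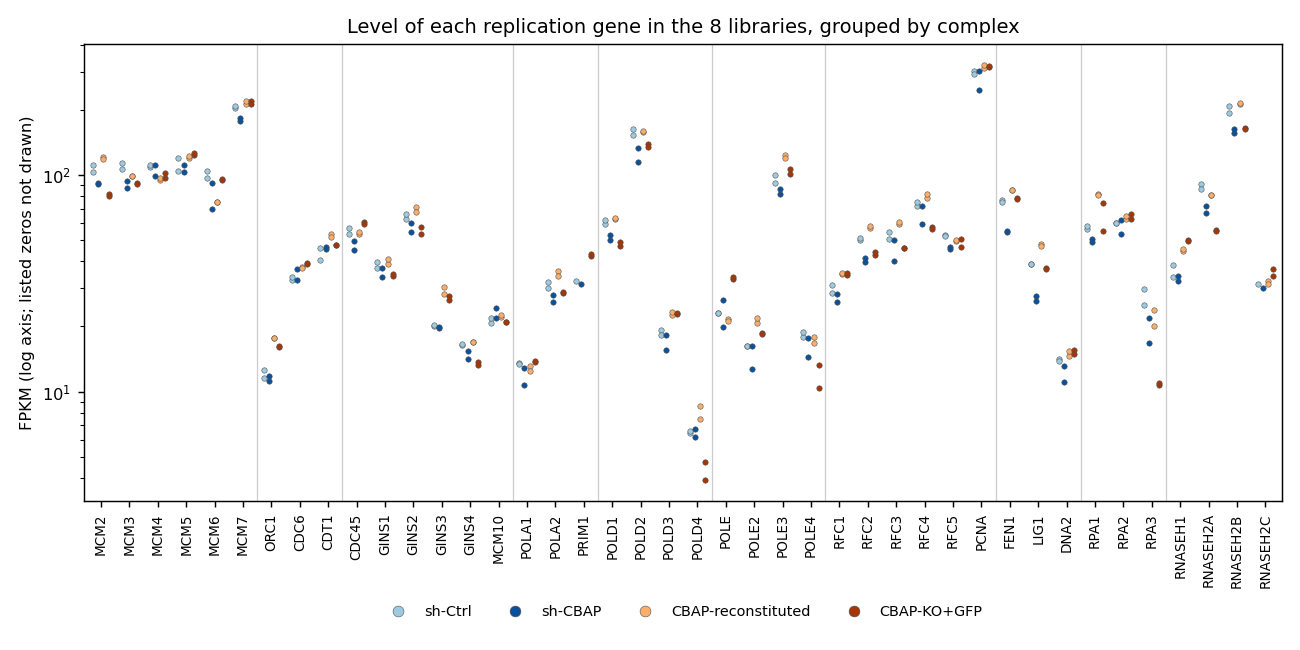
FPKM of each member (log axis) in each of the 8 libraries, 1 point per library, coloured by condition and grouped by complex, with listed zeros not drawn. PCNA lies above and POLD4 below the other members, and RPA3 and POLD4 are lowest in both CBAP-KO+GFP libraries.

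Replication genes called in the shRNA set were all lower in sh-CBAP, and in the CRISPR set most called members were lower in CBAP-KO+GFP, a direction that held under equal library medians and not under quantile normalization. In the shRNA set, 10 of the 42 members were lower in sh-CBAP than in sh-Ctrl (limma adjusted p under 0.05 over all tested genes) and 0 were higher, and 16 had an unadjusted p under 0.05. Of all 11427 tested genes, 8.7% were called lower and 3.62% higher. The median log2 change of the members was -0.18, against -0.060 for all tested genes. In the CRISPR set, 17 members were lower in CBAP-KO+GFP than in the libraries labelled CBAP-reconstituted and 1 was higher, where 25.9% of all tested genes were lower and 23.9% higher, and 22 members had an unadjusted p under 0.05. The members' median was -0.13 and that of all tested genes was 0.0. The sets share no library, but their tests shared a spread pooled over all 4 conditions, so calls in both sets are not independent. MCM2, POLD1, RFC2, FEN1, LIG1, RNASEH2A and RNASEH2B were lower in both, 7 of 42 members against 4.03% of all tested genes, and 4 of the 7 were lower in both under both scalings. By sign alone and as deposited, 26 members (61.9%) were below 0 in both sets, against 33.3% of all tested genes. Quantile normalization put MCM3, MCM7, POLD2, POLE3, RFC1, RFC5 and FEN1 of these above 0 in the CRISPR set. It put GINS3 and POLD4 above 0 in the shRNA set, and DNA2 below 0 in both.

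The counts rest on choices that have to be read with them. The shRNA calls used a spread pooled over all 4 conditions, and 0 members were called when the shRNA set was fitted on its own, with 10 at an unadjusted p under 0.05 and 75 of all tested genes called. Leaving out either library labelled CBAP-reconstituted left 2 shRNA calls, leaving out either CBAP-KO+GFP library left 3, either sh-Ctrl library left 5, and sh-CBAP replicate 2 gave 19. In the CRISPR set the direction of the members depended on scaling, since quantile normalization gave 12 lower and 11 higher members, where 25.0% of all tested genes were lower and 25.7% higher, and a median of -0.000165. The 11 were MCM3 to MCM7, CDC6, CDC45, POLE, PCNA, RPA2 and RNASEH1, of which POLE alone was called higher without that scaling. Equal library medians gave 24 lower and 1 higher. The CRISPR count was 9 and 8 without replicates 1 and 2 of the libraries labelled CBAP-reconstituted, and 10 without CBAP-KO+GFP replicate 2. Of the 10 shRNA calls 7 held under both scalings, as did 13 of the 18 CRISPR calls.

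**Figure D2:**
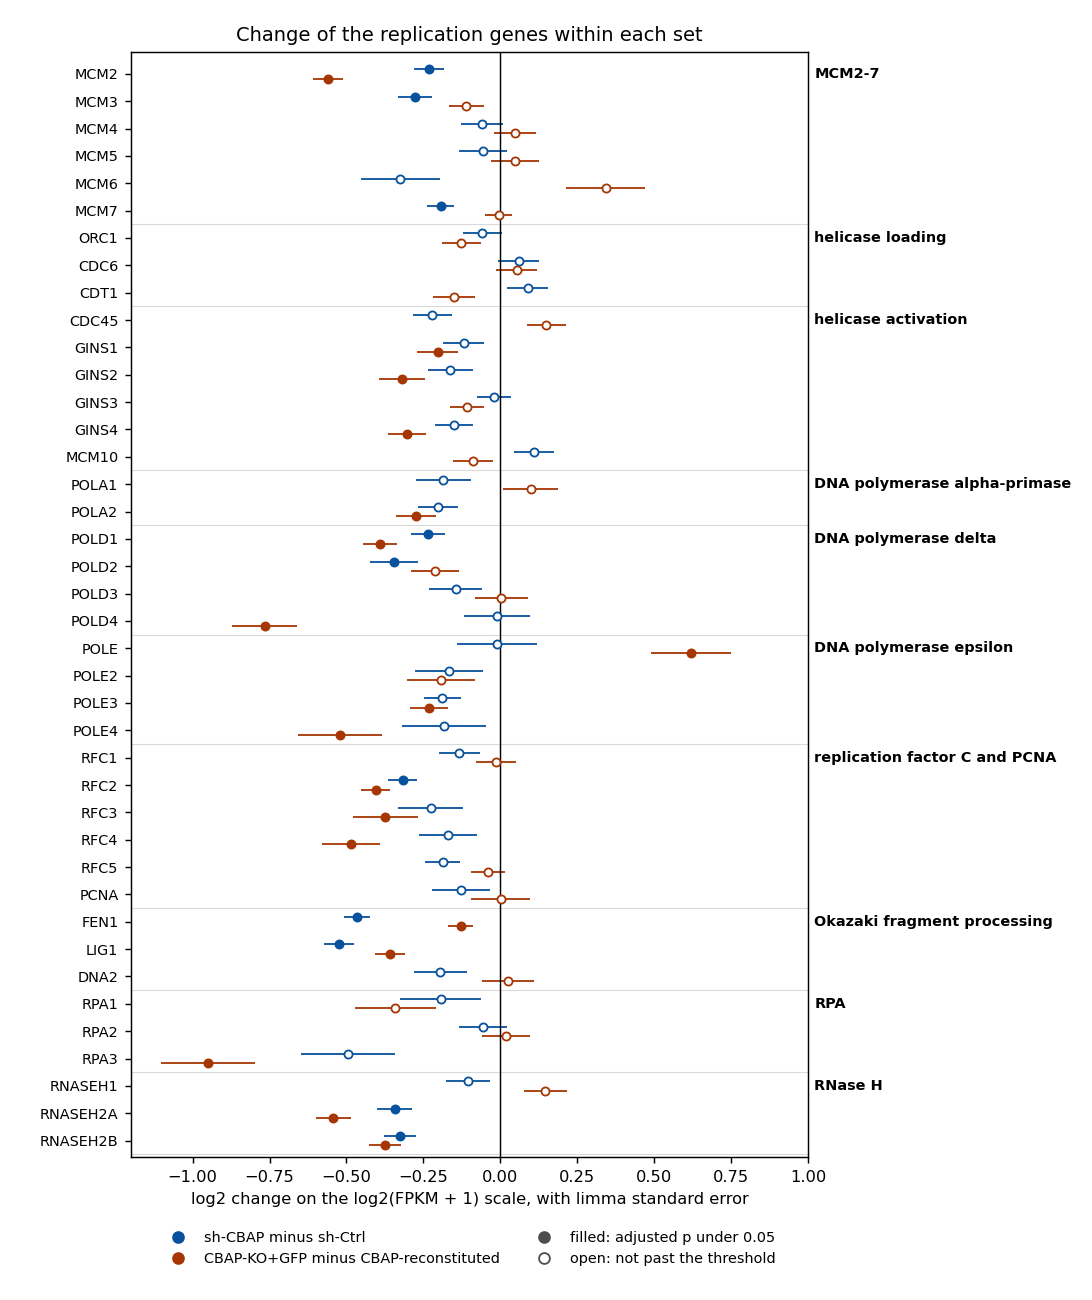
Log2 change (x axis, log2(FPKM + 1) scale) of the 40 members with no listed 0, grouped by complex, in the shRNA set (blue) and the CRISPR set (brown). Bars are limma standard errors and filled points passed an adjusted p of 0.05. FEN1 and LIG1 have the lowest blue points among those called, RPA3 and POLD4 the lowest brown ones, and POLE is the filled brown point above 0.

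The processing of Okazaki fragments held the largest called decreases in the shRNA set. LIG1, DNA ligase I, which seals the fragments, was at 39.0 and 39.0 FPKM in sh-Ctrl, 27.5 and 26.1 in sh-CBAP, 48.3 and 47.3 in the libraries labelled CBAP-reconstituted and 37.3 and 36.8 in CBAP-KO+GFP. Both sh-CBAP libraries lay below both sh-Ctrl libraries, and both CBAP-KO+GFP libraries below both libraries labelled CBAP-reconstituted. The log2 change was -0.52 (SE 0.048, limma adjusted p = 0.0050) in the shRNA set and -0.36 (SE 0.048, limma adjusted p = 0.0022) in the CRISPR set, and the difference between these changes did not pass the test (limma adjusted p = 0.11). The CRISPR change of LIG1 was -0.22 under quantile normalization and still past the threshold.

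FEN1, the flap endonuclease, was at 77.1 and 74.8 FPKM in sh-Ctrl, 54.5 and 55 in sh-CBAP, 85.2 and 85.5 in the libraries labelled CBAP-reconstituted and 78.5 and 77.4 in CBAP-KO+GFP. Its change was -0.46 (SE 0.042, limma adjusted p = 0.0047) in the shRNA set and -0.13 (SE 0.042, limma adjusted p = 0.047) in the CRISPR set. The decrease was larger in the shRNA set, with a difference of -0.34 on the log2 scale (SE 0.059, limma adjusted p = 0.010). With equal library medians the difference was -0.21 and did not pass the test. Under quantile normalization the CRISPR change of FEN1 turned to 0.089 (limma adjusted p = 0.15). FEN1 lies at chromosome 11, 61560383 to 61564710 on the plus strand of GRCh37, under exons of FADS2 on the same strand. Counting by strand would not separate FEN1 from FADS2, and whether the counting used strand is not given in the sources used here. DNA2, a nuclease and helicase that trims long flaps, was at 11.1 to 15.5 FPKM and passed no test.

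The RNase H2 subunits RNASEH2A and RNASEH2B were lower in both sets. RNASEH2A, its catalytic subunit, was at 90.5 and 86.1 FPKM in sh-Ctrl, 66.5 and 72.3 in sh-CBAP, 81.3 and 80.9 in the libraries labelled CBAP-reconstituted and 55.8 and 54.9 in CBAP-KO+GFP. The log2 change was -0.34 (SE 0.057, limma adjusted p = 0.021) and -0.54 (SE 0.057, limma adjusted p = 0.00095) in the shRNA and CRISPR sets. RNASEH2B, an accessory subunit and among the most abundant members, was at 208 and 194 FPKM in sh-Ctrl and 157 and 163 in sh-CBAP, and at 212 and 216 in the libraries labelled CBAP-reconstituted and 165 and 164 in CBAP-KO+GFP. Its changes were -0.33 (SE 0.052, limma adjusted p = 0.020) and -0.38 (SE 0.052, limma adjusted p = 0.0024). For both genes the 4 sh-CBAP and CBAP-KO+GFP libraries lay below all 4 other libraries, as for 10.3% of all tested genes. The calls of both genes held under both scalings. Their shRNA calls did not hold with that set fitted alone, as for all members called there. RNASEH2C, the third subunit, had listed zeros in sh-Ctrl replicate 1 and sh-CBAP replicate 2 and 30.2 to 36.8 FPKM in the other 6 libraries, so no fold change is given. A 0 in this table is a listed 0 and need not mean an absent transcript. RNASEH1, a separate enzyme of 1 polypeptide, was at 32.6 to 50.3 FPKM and passed no test as deposited. Under quantile normalization it was called higher in the CRISPR set.

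Of the 6 MCM2-7 genes, which encode the ring of the helicase, 3 were lower in sh-CBAP and 1 in CBAP-KO+GFP (8.7% and 25.9% of all tested genes), and MCM2 was lower in both sets. MCM2 was at 104 and 111 FPKM in sh-Ctrl, 91.9 and 90.8 in sh-CBAP, 121 and 119 in the libraries labelled CBAP-reconstituted and 81.6 and 80.3 in CBAP-KO+GFP. Its change was -0.23 (SE 0.049, limma adjusted p = 0.039) in the shRNA set, a call lost under both scalings, and -0.56 (SE 0.049, limma adjusted p = 0.00053) in the CRISPR set, a call kept under both. The difference of 0.33 between the changes passed the test (SE 0.070, limma adjusted p = 0.018) but not under quantile normalization (limma adjusted p = 0.16).

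MCM3 and MCM7 passed the test in the shRNA set and not in the CRISPR set, where both changes were below 0 as deposited and above 0 under quantile normalization. MCM3 was at 106 and 113 FPKM in sh-Ctrl and 87.3 and 93.6 in sh-CBAP (log2 change -0.28, SE 0.055, limma adjusted p = 0.032), and at 98.95 and 99.3 against 92.4 and 91.1 in the CRISPR set. MCM7 was at 205 and 208 against 177 and 183 FPKM (log2 change -0.19, SE 0.045, limma adjusted p = 0.046), a call lost under both scalings, and at 213 and 220 against 219 and 213 in the CRISPR set. For neither gene did the difference between the sets pass the test (limma adjusted p = 0.15 and 0.067). MCM7 overlaps exons of AP4M1 on the other strand. Of the 42 members, 16 have exons under those of another protein-coding gene, and 11 have named pseudogenes. The 16 include RNASEH2A, POLD1, GINS1, GINS2, POLA2, POLD4 and POLE3, and the part of such overlap in the values was not tested.

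MCM6 differed between the sets. It was at 97.3 and 104 FPKM in sh-Ctrl and 69.6 and 92.3 in sh-CBAP, and at 75.4 and 75.1 in the libraries labelled CBAP-reconstituted and 95.3 and 96.1 in CBAP-KO+GFP. Neither change passed the test, at -0.32 (limma adjusted p = 0.16) and 0.34 (limma adjusted p = 0.072), while the difference of -0.67 did (SE 0.18, limma adjusted p = 0.038), also under both scalings. MCM4 (95.2 to 111 FPKM) and MCM5 (104 to 126 FPKM) passed no test. Under quantile normalization the CRISPR-set calls of this complex became 1 lower (MCM2) and 5 higher, and under equal library medians 2 lower and 0 higher.

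The loading factors passed no test. ORC1, the largest ORC subunit, was at 11.2 to 12.5 FPKM in the shRNA set and 16.0 to 17.7 in the CRISPR set, with overlapping values in the shRNA set and both CBAP-KO+GFP values below both others in the CRISPR set (log2 change -0.13, limma adjusted p = 0.14). CDC6 ran from 32.8 to 39.1 FPKM and CDT1 from 40.7 to 53.4 over all libraries. In the CRISPR set CDC6 was called higher under quantile normalization, and ORC1 and CDT1 were called lower under equal library medians.

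Of the activation factors, 3 GINS subunits were lower in the CRISPR set (25.9% of all tested genes) and 0 members were called in the shRNA set, where 1 had an unadjusted p under 0.05. GINS2 was at 71.4 and 67.7 FPKM in the libraries labelled CBAP-reconstituted and 57.6 and 53.5 in CBAP-KO+GFP (log2 change -0.32, SE 0.074, limma adjusted p = 0.015), and at 62.4 and 66.0 against 60.3 and 54.4 in the shRNA set. GINS4 was at 16.95 and 16.91 against 13.8 and 13.3 FPKM (log2 change -0.30, SE 0.061, limma adjusted p = 0.0095), and at 16.5 and 16.5 against 14.1 and 15.4 in the shRNA set. GINS1 was at 38.9 and 41.0 against 34.1 and 35.0 FPKM (log2 change -0.20, SE 0.067, limma adjusted p = 0.048). For all 3 genes the 4 sh-CBAP and CBAP-KO+GFP libraries lay below all 4 other libraries, as for 10.3% of all tested genes. Of the 3 CRISPR calls only that of GINS4 held under quantile normalization. GINS3 (19.7 to 30.4 FPKM) and MCM10 (20.8 to 24.4 FPKM) passed no test as deposited. Under equal library medians MCM10 was called lower in the CRISPR set.

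CDC45, which completes the helicase, differed between the sets as well. It was at 57.1 and 53.3 FPKM in sh-Ctrl and 45.0 and 49.4 in sh-CBAP, and at 53.5 and 54.7 in the libraries labelled CBAP-reconstituted and 60.6 and 59.6 in CBAP-KO+GFP. The changes of -0.22 and 0.15 did not pass the test (limma adjusted p = 0.080 and 0.10), and the difference of -0.37 did (SE 0.090, limma adjusted p = 0.028).

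The polymerases differed by subunit. POLD1, the catalytic subunit of polymerase delta, was at 59.4 and 62.3 FPKM in sh-Ctrl, 53.1 and 50.0 in sh-CBAP, 63.0 and 63.4 in the libraries labelled CBAP-reconstituted and 46.8 and 49.0 in CBAP-KO+GFP. It changed by -0.24 (SE 0.055, limma adjusted p = 0.048) in the shRNA set, a call lost under both scalings, and by -0.39 (SE 0.055, limma adjusted p = 0.0026) in the CRISPR set. POLD2 was at 152 and 163 FPKM in sh-Ctrl and 115 and 133 in sh-CBAP (log2 change -0.35, SE 0.079, limma adjusted p = 0.046), and at 157 and 159 against 139 and 134 in the CRISPR set (limma adjusted p = 0.068). POLD3, an accessory subunit, was at 15.5 to 23.3 FPKM and passed no test.

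POLD4 changed in the CRISPR set and not detectably in the shRNA set. It was at 6.43 and 6.56 FPKM in sh-Ctrl and 6.73 and 6.14 in sh-CBAP, with overlapping values. In the CRISPR set it was at 7.496 and 8.58 against 4.73 and 3.91 FPKM. The changes were -0.011 (limma adjusted p = 0.97) and -0.77 (SE 0.11, limma adjusted p = 0.0025), and their difference of 0.75 passed the test (SE 0.15, limma adjusted p = 0.015), also under both scalings.

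POLE, the catalytic subunit of polymerase epsilon, was the 1 member called higher. It was at 23.1 and 23.1 FPKM in sh-Ctrl and 19.8 and 26.6 in sh-CBAP, where the sh-CBAP libraries lay on either side. In the CRISPR set it was at 21.7 and 21.3 against 33.1 and 34.0 FPKM. The change was 0.62 (SE 0.13, limma adjusted p = 0.011) in the CRISPR set and held under both scalings, and the difference from the shRNA set was -0.63 (SE 0.18, limma adjusted p = 0.046).

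The small histone-fold subunits of polymerase epsilon went the other way from POLE in the CRISPR set. POLE4 was at 16.7 and 17.8 FPKM against 13.2 and 10.4 (log2 change -0.52, SE 0.14, limma adjusted p = 0.024). POLE3 was at 124 and 121 against 101 and 106 FPKM (log2 change -0.23, SE 0.062, limma adjusted p = 0.024), which turned to 0.0081 under quantile normalization (limma adjusted p = 0.91). In the shRNA set POLE4 ranged from 14.5 to 18.9 FPKM and POLE3 from 82.0 to 100.1, and neither passed the test. POLE2, the second subunit, was at 12.7 to 21.9 FPKM and was not called as deposited. Under equal library medians it was called lower in the CRISPR set.

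In polymerase alpha, the accessory subunit POLA2 was at 35.9 and 34.2 FPKM in the libraries labelled CBAP-reconstituted and 28.6 and 28.9 in CBAP-KO+GFP (log2 change -0.27, SE 0.064, limma adjusted p = 0.016). In the shRNA set it was at 29.96 and 32.2 against 25.9 and 27.9 FPKM, with a change of -0.20 that did not pass the test (limma adjusted p = 0.096). POLA1, at 10.7 to 13.8 FPKM, was not called. PRIM1, the primase that makes the RNA primer, was listed at 0 in sh-Ctrl replicate 1, sh-CBAP replicate 1 and both libraries labelled CBAP-reconstituted, and had 32.5, 31.6, 42.5 and 43.1 FPKM in sh-Ctrl replicate 2, sh-CBAP replicate 2 and the CBAP-KO+GFP libraries. Its exons lie under those of NACA and HSD17B6, and no fold change is given.

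Of the clamp loader, 3 of 5 RFC genes were lower in the CRISPR set, where 25.9% of all tested genes were, and 1 of them in the shRNA set too, where 8.7% were. RFC2 was at 50.0 and 51.4 FPKM in sh-Ctrl, 39.7 and 41.3 in sh-CBAP, 57.2 and 58.3 in the libraries labelled CBAP-reconstituted and 42.7 and 44.04 in CBAP-KO+GFP. It changed by -0.32 (SE 0.047, limma adjusted p = 0.017) in the shRNA set and by -0.40 (SE 0.047, limma adjusted p = 0.0014) in the CRISPR set, calls that held under both scalings. RFC4 was at 78.3 and 82.1 against 57.5 and 56.5 FPKM in the CRISPR set (log2 change -0.49, SE 0.094, limma adjusted p = 0.0083), and its exons overlap those of EIF4A2.

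RFC3 was at 59.3 and 60.6 against 45.9 and 46.2 FPKM in the CRISPR set (log2 change -0.37, SE 0.11, limma adjusted p = 0.030), a call lost under quantile normalization. In the shRNA set RFC3 was at 54.8 and 50.7 against 40.2 and 50.0 FPKM and RFC4 at 72.1 and 75.2 against 59.4 and 72.0, and neither passed the test, with sh-CBAP replicate 1 the lower of the pair for both. RFC1 (25.9 to 35.4 FPKM), the large subunit, and RFC5 (45.6 to 53.0 FPKM) passed no test.

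PCNA was not called in either set. It was at 303 and 294 FPKM in sh-Ctrl, 247 and 302 in sh-CBAP, 313 and 323 in the libraries labelled CBAP-reconstituted and 317 and 320 in CBAP-KO+GFP. The change was -0.13 (SE 0.095, limma adjusted p = 0.41) in the shRNA set and 0.00081 (SE 0.095, limma adjusted p = 1.0) in the CRISPR set. Quantile normalization gave 0.31 in the CRISPR set, past the threshold (limma adjusted p = 0.0079).

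RPA3, the smallest RPA subunit, had the largest called change of all members. It was at 29.8 and 25.2 FPKM in sh-Ctrl, 21.8 and 16.9 in sh-CBAP, 23.9 and 20.1 in the libraries labelled CBAP-reconstituted and 10.8 and 10.9 in CBAP-KO+GFP. The change was -0.95 (SE 0.15, limma adjusted p = 0.0042) in the CRISPR set and -0.50 (SE 0.15, limma adjusted p = 0.090) in the shRNA set, which did not pass, and the difference was not called (limma adjusted p = 0.16). RPA3 lies at chromosome 7, 7676149 to 7758238 on the minus strand of GRCh37, and shares exon positions with UMAD1. RPA1, the large subunit, was at 81.7 and 81.0 against 55.2 and 74.1 FPKM in the CRISPR set and was not called (limma adjusted p = 0.076). RPA2 ran from 53.7 to 66.3 FPKM and passed no test as deposited. In the CRISPR set RPA1 was called lower under equal library medians and RPA2 higher under quantile normalization.

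**Figure D3:**
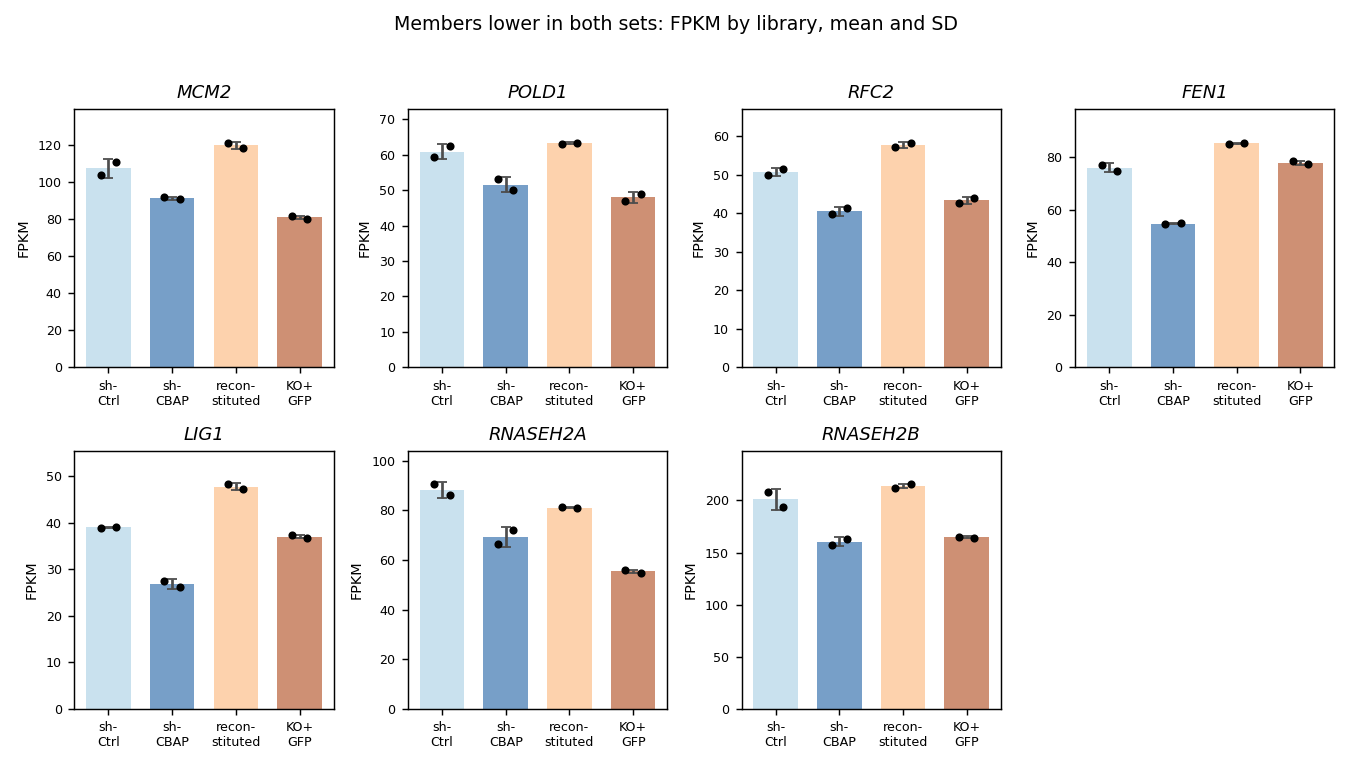
FPKM of the 7 members lower in both sets, 1 panel per gene, with bars at the mean of 2 libraries, error bars of 1 SD and points for the libraries. In each panel both sh-CBAP libraries lie below both sh-Ctrl libraries and both CBAP-KO+GFP libraries below both libraries labelled CBAP-reconstituted, and the gap of FEN1 is wider in the shRNA set.

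**Figure D4:**
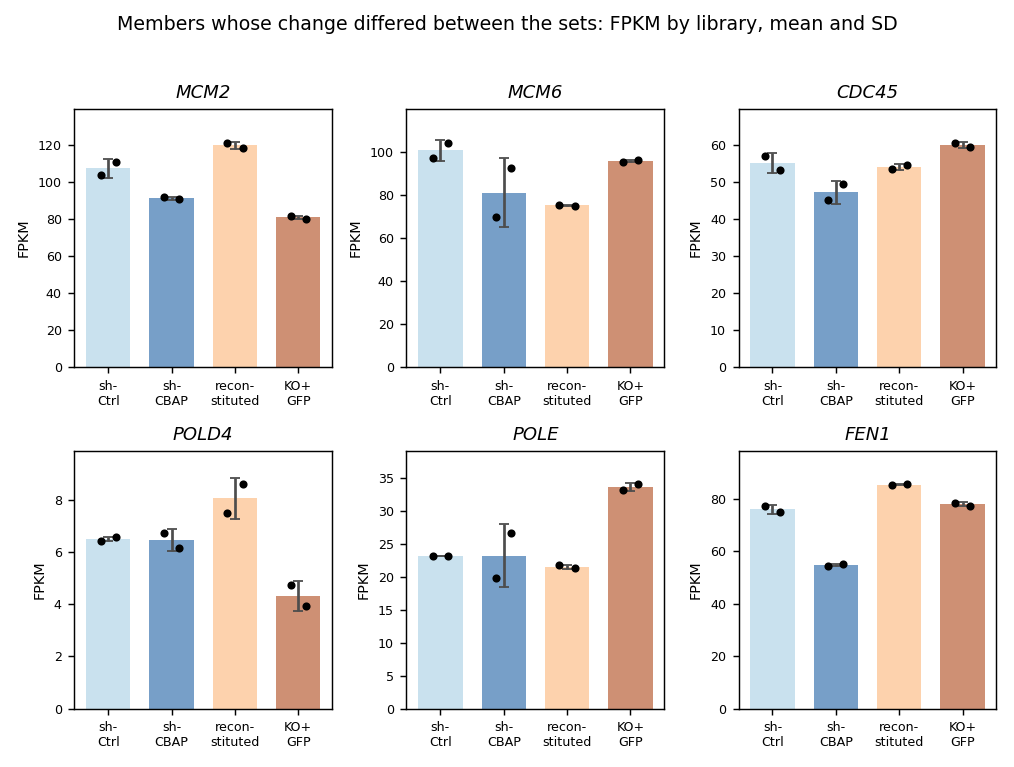
FPKM of the 6 members whose change differed between the sets, with bars at the mean of 2 libraries, error bars of 1 SD and points for the libraries. For MCM6 and CDC45 the sh-CBAP mean lies below sh-Ctrl and the CBAP-KO+GFP mean above the other CRISPR-set mean, and POLE and POLD4 show a gap in the CRISPR set.

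Between the sets, 6 members differed in their change (MCM2, MCM6, CDC45, POLD4, POLE and FEN1), 14.3% of the members where 33.8% of all tested genes did. The difference was below 0 for 4 of them and above 0 for 2, against 10 and 3 under quantile normalization and 3 and 8 with equal library medians. Without replicates 1 and 2 of the libraries labelled CBAP-reconstituted the count was 1 and 0, without those of CBAP-KO+GFP 2 and 3, and without those of sh-CBAP 11 and 12.

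Across both sets at once, without a term for the set, 0 members passed limma's test between the 4 sh-CBAP and CBAP-KO+GFP libraries and the 4 libraries of sh-Ctrl and CBAP-reconstituted, a class that holds 2 libraries with TMEM102 at 0, where 0.621% of all tested genes did. At an unadjusted p under 0.05 there were 15 members. Adding a term for the set gave 10 lower members, where 8.46% of all tested genes were lower. The 4 sh-CBAP and CBAP-KO+GFP libraries lay wholly below the other 4 for 14 members (MCM2, MCM3, GINS1, GINS2, GINS4, POLA2, POLD1, POLD2, RFC2, RFC3, RFC4, LIG1, RNASEH2A and RNASEH2B), and this held for 10.3% of all tested genes. These are the libraries of the comparisons above and add no independent measurement.

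Within sh-CBAP, replicate 1 was the lower library for 32 of the 40 members with values above 0 in both, by a median of 0.10 on the log2 scale, and over all tested genes the median gap was 0.12. In CBAP-KO+GFP replicate 1 was lower for 22 of 42 members.

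The genes that serve the fork from other pathways were taken as lists, whose counts are to be read against 8.7% lower and 3.62% higher of all tested genes in the shRNA set, and 25.9% lower and 23.9% higher in the CRISPR set. Of 28 other initiation and fork factors, 1 was lower in the shRNA set (ORC4, an origin recognition subunit, which was among those higher in the CRISPR set, a call lost under both scalings), and 3 were lower and 4 higher in the CRISPR set, each a smaller share than that of all tested genes. TOP2A, a topoisomerase that also serves mitosis, was at 78.9 and 79.0 FPKM in the libraries labelled CBAP-reconstituted and 133 and 137 in CBAP-KO+GFP (log2 change 0.77, SE 0.11, limma adjusted p = 0.0027). MCM9 changed by 0.69 and TOPBP1, which helps activate origins, by 0.46, while CHTF8, a subunit of an alternative clamp loader, changed by -0.45, all in the CRISPR set and under both scalings.

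Of 13 genes of nucleotide supply, 2 were lower in the shRNA set (TYMS and DUT, the latter a call lost under quantile normalization), and 6 were lower in the CRISPR set (8.7% and 25.9% of all tested genes), where quantile normalization left 2 lower. TYMS, thymidylate synthase, was at 311 and 301 FPKM in sh-Ctrl and 245 and 250 in sh-CBAP (log2 change -0.31, SE 0.041, limma adjusted p = 0.013), and its CRISPR change of -0.15 turned to 0.097 under quantile normalization. TK1, thymidine kinase, was at 30.9 and 30.3 against 19.2 and 18.2 FPKM in the CRISPR set (log2 change -0.68, SE 0.078, limma adjusted p = 0.0013). CTPS1, which makes CTP, changed by -0.58 there.

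Of 13 genes of chromatin assembly and maintenance methylation, 2 were lower in the shRNA set (8.7% of all tested genes), and 1 was lower and 3 higher in the CRISPR set (25.9% and 23.9% of all tested genes), the higher ones at about the share of all genes. CHAF1B, a subunit of the assembly factor CAF-1, was at 26.5 and 26.6 FPKM in sh-Ctrl and 18.7 and 18.7 in sh-CBAP (log2 change -0.48, SE 0.046, limma adjusted p = 0.0055), and at 26.8 and 27.4 against 26.9 and 27.5 in the CRISPR set. RBBP4, which binds histones in the same complex, changed by -0.61 in the shRNA set and by 0.36 in the CRISPR set, the latter a call lost under equal library medians. NASP, a histone chaperone, changed by 0.59 and SUPT16H, a FACT subunit, by -0.47 in the CRISPR set.

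Among 13 E2F factors and pocket proteins, 1 was lower (TFDP1) and 2 higher (E2F2 and E2F6) in the shRNA set, and 4 were lower and 2 higher in the CRISPR set (25.9% and 23.9% of all tested genes). Among the 4 lower calls was that of E2F1, which rests on listed zeros. E2F1 was listed at 0 in 6 libraries and had 28.8 and 28.8 FPKM in the libraries labelled CBAP-reconstituted, so no fold change is given. E2F5 was at 30.6 and 31.1 against 16.4 and 17.8 FPKM in the CRISPR set (log2 change -0.82, SE 0.11, limma adjusted p = 0.0024). RBL2 and RBL1, pocket proteins that restrain E2F, changed by 0.60 and 0.49. TFDP1, the DNA-binding partner of E2F proteins, was chosen after its values were seen. It was at 69.9 and 75.2 against 47.6 and 55.3 FPKM in the shRNA set (log2 change -0.49, SE 0.084, limma adjusted p = 0.023) and at 86.8 and 86.3 against 65.4 and 69.6 in the CRISPR set (log2 change -0.35, limma adjusted p = 0.017), and the CRISPR call was lost under quantile normalization (limma adjusted p = 0.095).

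Of 10 translesion and gap-filling polymerases, 1 was lower in the shRNA set (MAD2L2), and 2 were lower and 4 higher in the CRISPR set. The lower counts are near the 8.7% and 25.9% of all tested genes, and 23.9% of all were higher. POLI was at 2.26 and 2.38 against 6.15 and 5.21 FPKM (log2 change 1.01, SE 0.17, limma adjusted p = 0.0047), POLQ changed by 0.92 and POLK by 0.49, and POLB, the repair polymerase beta, by -0.44.

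Of 12 genes of G2 and M phase, 1 was lower in the shRNA set (CCNB1, a call lost under both scalings), and 6 were lower and 1 higher in the CRISPR set (25.9% and 23.9% of all tested genes). CDC20, an activator of the anaphase-promoting complex, was at 127 and 126 against 57.9 and 59.1 FPKM (log2 change -1.10, SE 0.046, limma adjusted p = 4.6e-05). CCNB1 changed by -0.88, PLK1 by -0.73 and AURKB by -0.70 in the CRISPR set, while MKI67, the proliferation antigen, was higher by 0.68 on the log2 scale. The part of a different share of cells in each phase of the cycle in these values was not tested. By BrdU labelling, the study reported more G0/G1 cells in CBAP knockout than in CRISPR control Jurkat cells. That control is not among these libraries.

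**Figure D5:**
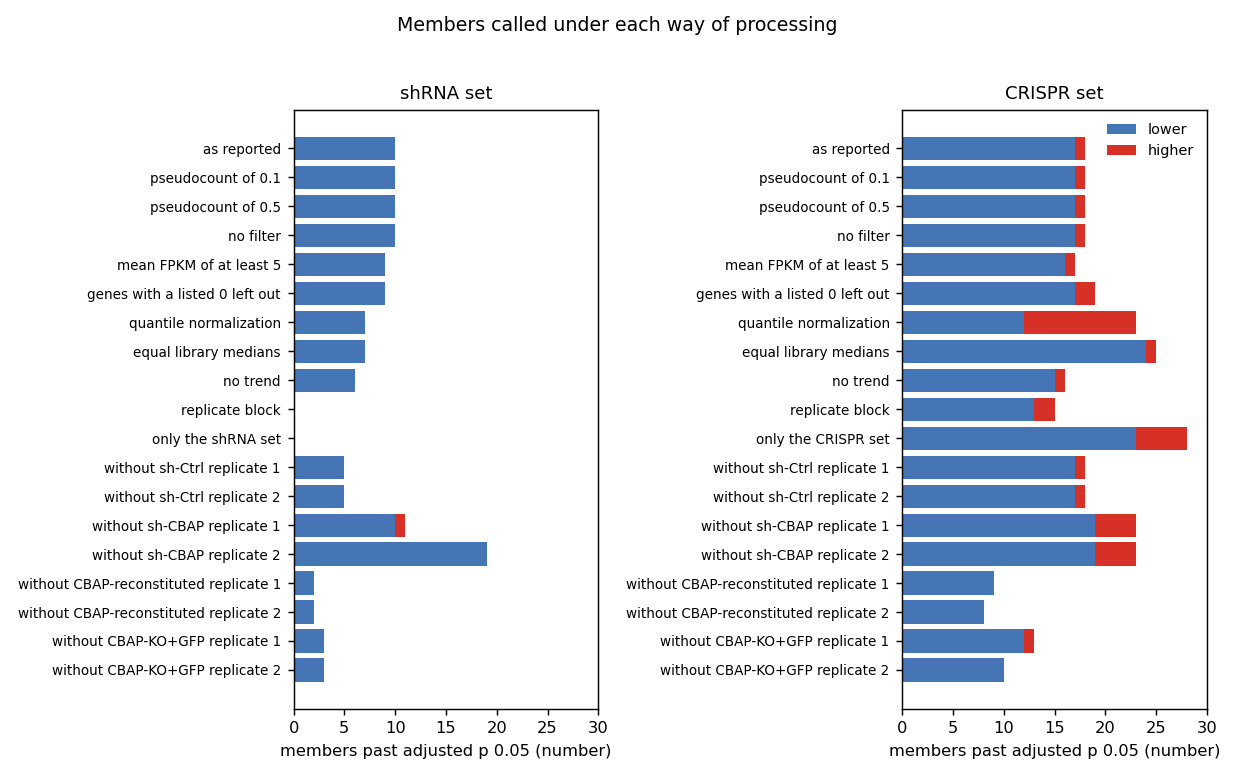
Number of members past an adjusted p of 0.05 (x axis) in the shRNA set and the CRISPR set under each way of processing, split into lower (blue) and higher (red). The shRNA bar is empty for the replicate block and for the shRNA set alone, and quantile normalization gives 12 lower and 11 higher members in the CRISPR set.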

How the data were processed

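RNA-seq libraries of Jurkat-derived cells, 2 per condition, were used. Per the labels and methods, base calling by the authors used CASAVA 1.8, paired-end reads were placed on hg19 by TopHat, and cuffdiff gave FPKM. The Cufflinks version, annotation, library scaling and strand setting are not given in the sources used here. The deposited FPKM table names genes by symbol. From it, log2(FPKM + 1) was tested where the mean FPKM over libraries reached 1, with limma 3.58.1 (R 4.3.3; empirical Bayes with trend), Benjamini-Hochberg adjustment over 11427 genes and a threshold of 0.05. A model with a mean per condition gave the change within each set and their difference, and a second compared sh-CBAP and CBAP-KO+GFP with sh-Ctrl and CBAP-reconstituted. Changes on this scale understate those of low genes. On simulated data for the shRNA comparison (11427 genes, 200 changed), 75% were called at a log2 change of 1 and 90.5% at 2, with 1 and 12 false calls. The called shRNA changes of the members were smaller, from -0.52 to -0.19, and changes of that size were not simulated. The simulated noise was independent between genes, without a shift of a whole library, so these rates do not carry over to the member calls.

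Named were members past the threshold in both sets, the 5 largest called changes per direction in each set, members past the threshold in that second model, members with a listed 0, the highest and lowest member, TMEM102 and up to 4 called genes per list. Further members are given by complex. Members and lists were chosen with earlier results of these data known. Alternatives covered the pseudocount (0.1, 0.5), filter, listed zeros, scaling, trend, replicate block, set as covariate, each set alone and each library left out. No set test was run. Positions are from GENCODE 44 lifted to GRCh37. A result of the nucleotide supply list is not reported here.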

Additional observations from a re-analysis of the deposited data

Results flagged for a closer look

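Over 84 groups of 4 libraries (each member in the sh-Ctrl and CBAP-reconstituted libraries, and in the sh-CBAP and CBAP-KO+GFP libraries), 4 had a library set far from the others. Chance alone would give about 4.2 if the libraries of a group came from a single population. Each group mixes conditions of both sets, so this figure cannot say whether 4 is many or few. MCM5 was at 104 FPKM in sh-Ctrl replicate 1 against 120 to 122 in the other 3 libraries of its group. MCM6 was at 69.6 FPKM in sh-CBAP replicate 1 against 92.3 to 96.1 in the other 3. PRIM1 was at 32.5 FPKM in sh-Ctrl replicate 2 and listed at 0.0 in sh-Ctrl replicate 1 and both libraries labelled CBAP-reconstituted. RNASEH2C was listed at 0.0 in sh-Ctrl replicate 1 and at 31.3 to 32.5 FPKM in the others.

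The change in the shRNA set minus that in the CRISPR set passed limma's interaction test for 6 members. On the log2 scale it was 0.33 for MCM2, -0.67 for MCM6, -0.37 for CDC45, 0.75 for POLD4, -0.63 for POLE and -0.34 for FEN1. Under quantile normalization the values of MCM6, CDC45, POLD4, POLE and FEN1 stayed past the threshold.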

How the results depend on the processing

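Without the trend, 6 members were called in the shRNA set. With a replicate block, which treats same-numbered libraries of a set as paired, 0 members were called in the shRNA set (15 at an unadjusted p under 0.05), 15 in the CRISPR set, 2 for the difference and 0 in the comparison of sh-CBAP and CBAP-KO+GFP with the other 4 libraries. The labels give no shared origin for the numbers, the correlation of same-numbered deviations was 0.146 for the shRNA libraries and 0.024 for the CRISPR ones, and the block leaves fewer residual degrees of freedom. The shRNA set alone gave 0 and the CRISPR set alone 28. For the difference, quantile normalization gave 13 and equal library medians 11. In that last comparison, equal library medians gave 1 and the set as a covariate 10. Under quantile normalization the median change was -0.0988 (shRNA) and -0.000165 (CRISPR), and the CRISPR median was -0.195 with equal library medians and -0.139 without genes with a listed 0. With 1 library left out, the counts ran from 2 to 19 in the shRNA set, 8 to 23 in the CRISPR set and 0 to 12 for the difference, and the shRNA median from -0.22 to -0.0985. Among the members called in the CRISPR set, POLE3 (0.0081) and FEN1 (0.089) changed sign there under quantile normalization. Members not called there, such as MCM3, MCM7 and POLD2, changed sign too. The cause of these shifts was not tested. Under the other alternatives run, these counts stayed within 1.5 times. A lone library of a condition is assumed to vary like the others. Over single members, 105 of 180 shRNA values, 276 of 324 CRISPR values and 71 of 102 differences kept their direction and call. FPKM without counts gives no depth, and 2 libraries per condition limit all of these values.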

Other observations

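Ratios of FPKM within a library, for pairs of genes chosen after their values were seen, differed between conditions within complexes, and no test was run on them. MCM2 over MCM6 was 1.07 and 1.07 in sh-Ctrl, 1.32 and 0.983 in sh-CBAP, 1.61 and 1.58 in the libraries labelled CBAP-reconstituted and 0.857 and 0.836 in CBAP-KO+GFP. POLE4 over POLE was 0.77 and 0.817 in sh-Ctrl, 0.895 and 0.546 in sh-CBAP, 0.772 and 0.837 in the libraries labelled CBAP-reconstituted and 0.399 and 0.306 in CBAP-KO+GFP. RPA3 over RPA1 was lowest in CBAP-KO+GFP, at 0.195 and 0.147, against 0.292 and 0.248 in the libraries labelled CBAP-reconstituted, 0.443 and 0.333 in sh-CBAP and 0.53 and 0.434 in sh-Ctrl. PCNA over RFC1 ran from 8.97 to 10.7 over all 8 libraries.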
